A study of Homo sapiens with 6 samples.

Results

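The inflammatory caspases and the components of toll-like receptor signalling were examined across siLUC and siCCAR2 U2OS cells through 9 genes: CASP1, CASP4, PYCARD, IL18, LY96, TLR3, TLR4, MYD88 and HAVCR2. The genes were listed by name, and CASP1, LY96 and HAVCR2 were picked for their rise in siCCAR2 cells, so that for these 3 genes the difference between conditions is a description and carries no test. Together they have 15 probes on the array. Of these, 9 probes were detected on at least 1 array, which left 7 of the 9 genes among the 12013 genes tested, and PYCARD and TLR3 were not among them.

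U2OS is a human osteosarcoma cell line. Cells were transfected with a control siRNA (siCTRL in the labels, siLUC in the methods) or with 4 pooled siRNAs that target CCAR2, a nuclear regulator of transcription and of the DNA damage response, and total RNA was taken 6 days later, in 3 arrays per condition. Arrays A, B and C are siLUC and arrays D, E and F are siCCAR2, so both conditions carry transfected siRNA and the 4 siRNAs of the pool cannot be told apart. All 6 arrays sat on the same Human HT12_v4 bead chip, with the siLUC arrays ahead of the siCCAR2 arrays, so position and silencing cannot be told apart either, and no label pairs a siLUC array with a siCCAR2 array. The triplicates are described as independent, with nothing further on the cultures, so p-values measure only the spread between these arrays.

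Toll-like receptors are membrane proteins that bind microbial products. TLR4 senses lipopolysaccharide together with LY96, which is also called MD-2, and passes the signal to the adaptor MYD88, whereas TLR3 senses double-stranded RNA inside endosomes and signals without MYD88. Inflammasomes are platforms in which a sensor recruits the adaptor PYCARD, also called ASC, and this activates caspase-1, the product of CASP1, which cuts the precursors of interleukin-1 beta and interleukin-18 and opens gasdermin D pores. Caspase-4 binds lipopolysaccharide in the cytosol and cuts gasdermin D directly. HAVCR2 encodes TIM-3, a receptor best known from exhausted T cells and from myeloid cells. U2OS belongs to the mesenchymal lineage and not to the blood cells in which most of this machinery has been studied.

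The depth of an array is given here by its detection p-value, which sets a probe against negative control beads, and a probe was called detected at a detection p under 0.01. Between 37.2% and 41.0% of the 47321 probes were detected per array. Signals were log2 transformed and quantile normalized, and the lowest detected signal lay between 7.10 and 7.29 on that log2 scale. CCAR2 itself had 11.43, 11.34 and 11.01 in arrays A to C and 9.88, 9.96 and 9.91 in arrays D to F. Of 10 markers of mesenchymal bone-forming cells, 8 were detected on every array, while COL1A2 and TWIST1 were not detected on any. Across all genes, 3 of 12013 (0.025%) passed limma at 1.5-fold or more with an adjusted p no higher than 0.05 (1 higher, or 0.00832%, and 2 lower, or 0.0166%), and no tested member was among them.

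The 3 genes picked for their rise differed in detection and in the overlap of their groups. CASP1 was detected on every siCCAR2 array and on no siLUC array, LY96 was detected on all 6 arrays with siCCAR2 above siLUC throughout, and HAVCR2 was detected on all 6 with the groups overlapping. LY96 and HAVCR2 lay beyond 1.5-fold higher, as did 1.1% of all genes tested by their measured signals. The groups did not overlap, with siCCAR2 higher, for 6.35% of all genes tested. Since the rule used this contrast, nothing is read from these counts or from the overlap of the picked genes. For CASP1 only a bound can be given. Because RNA was taken from whole cultures, a change in RNA per cell and a change in the number of cells that express a gene cannot be told apart.

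CASP1 encodes the protease at the centre of the inflammasome. Its probe ILMN_2326509 had a normalized log2 signal of 6.79, 6.40 and 6.86 in siLUC arrays A, B and C and of 7.54, 7.36 and 7.46 in siCCAR2 arrays D, E and F. The groups do not overlap, the siCCAR2 arrays stand close together and array B is the lowest. The means were 6.68 ± 0.25 (SD, n = 3) and 7.45 ± 0.09 (SD, n = 3), a log2 difference of 0.77 with a standard error of 0.16 in the limma fit, from which all standard errors of genes come. Since the siLUC signals did not rise above the negative control beads (detection p of 0.0961, 0.456 and 0.0468), the measured ratio of 1.71 is not a fold change of the transcript. Only a bound of 1.19-fold higher in siCCAR2 cells is given, which carries no sampling error and no test. This bound takes the mean of the siCCAR2 arrays against the mean of each siLUC array's lowest detected signal.

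The second CASP1 probe, ILMN_2326512, had 6.65, 6.68 and 6.85 in siLUC and 7.16, 7.21 and 7.32 in siCCAR2 cells. It was detected only on array F, so no fold change is given for it. The same bound came to 1.02-fold higher, from a siCCAR2 mean that includes the undetected arrays D and E. The third probe, ILMN_1727762, is annotated to another CASP1 transcript. It was not detected on any array (detection p between 0.716 and 0.994), with signals between 5.85 and 6.20 in both conditions. CASP1 lies on chromosome 11 between CASP5 and CARD16, and CARD16 and CARD17P carry a sequence close to that of CASP1. No probe of CASP5, CARD16 or CARD17P was detected on any array, and whether the CASP1 probes also bind their transcripts was not tested.

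LY96 encodes the co-receptor without which TLR4 does not bind lipopolysaccharide. Its probe had 10.16, 8.97 and 10.08 in siLUC and 10.68, 10.32 and 10.56 in siCCAR2 cells. The groups do not overlap, with 0.16 between their nearest arrays, and array B stood apart below the rest. The means were 9.74 ± 0.67 and 10.52 ± 0.18 (SD, n = 3 each), a log2 difference of 0.78 (standard error 0.29), or 1.72-fold higher. Without array B the difference was 0.40. It was 0.52 in the fit that weights arrays by their quality, where array B had a weight of 0.385 and array A of 2.91.

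HAVCR2, the gene of TIM-3, had 8.29, 7.62 and 7.51 in siLUC and 8.95, 8.66 and 7.93 in siCCAR2 cells. Array A of siLUC exceeded array F of siCCAR2, so the groups overlap. The means were 7.81 ± 0.42 and 8.51 ± 0.53 (SD, n = 3 each), a log2 difference of 0.70 (standard error 0.29), or 1.63-fold higher. With array quality weights the difference was 0.30.

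**Figure D1:**
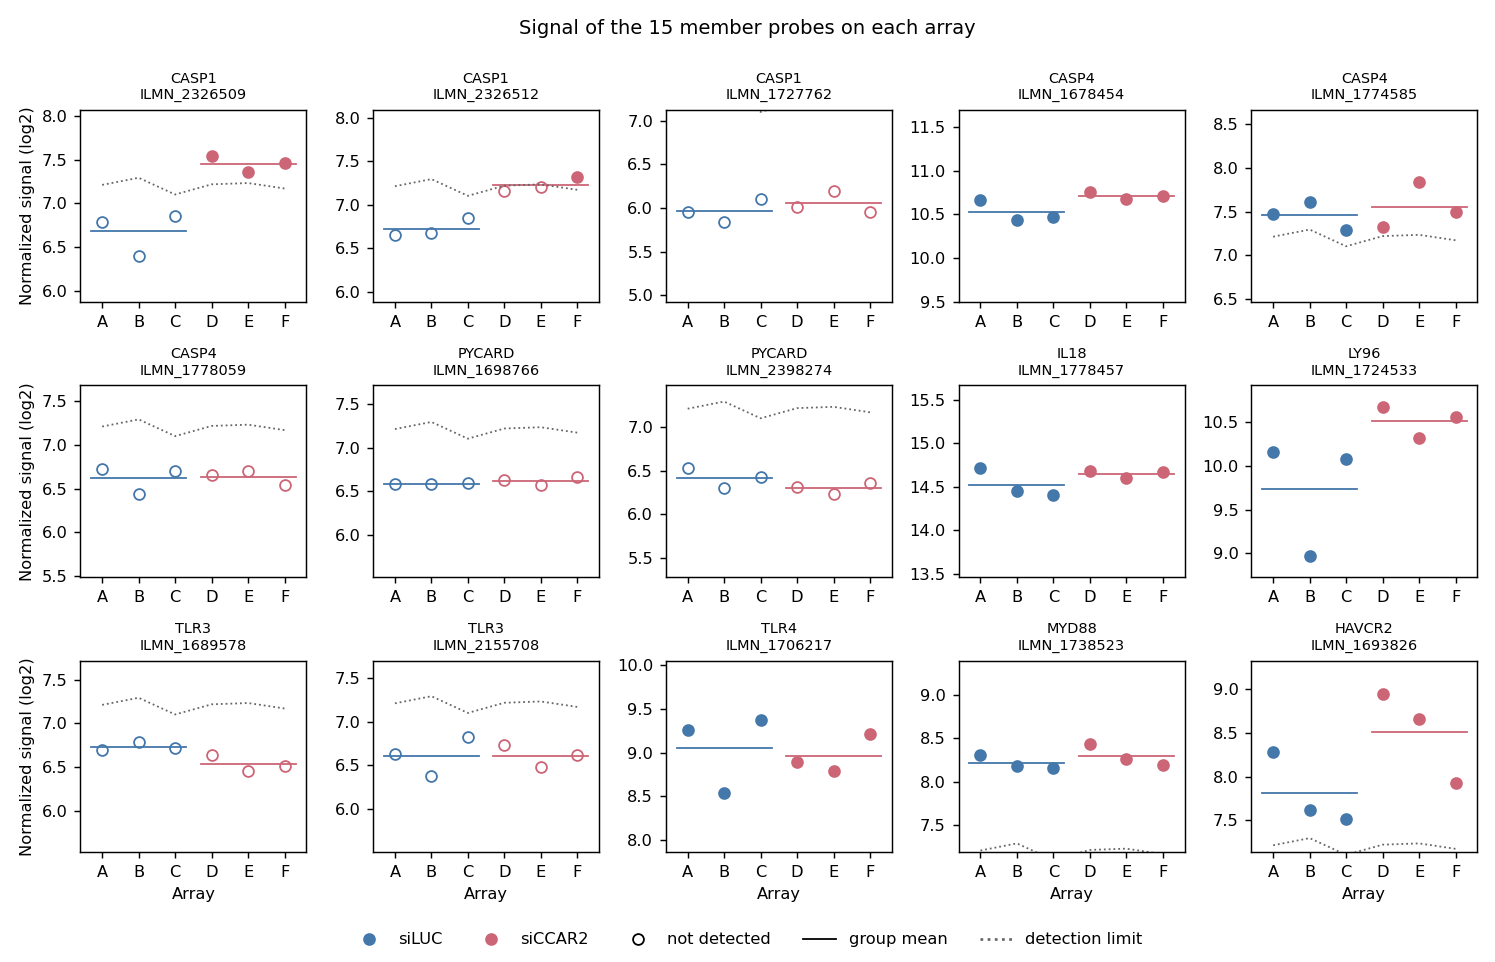
Normalized signal on a log2 scale (y axis) of each of the 15 member probes on arrays A to C (siLUC, blue) and D to F (siCCAR2, red), where each panel spans the same number of log2 units, filled points are detected (detection p under 0.01), open points are not, horizontal lines are group means and the dotted line is the lowest detected signal of each array. CASP1 probe ILMN_2326509 crosses the detection limit between the conditions (6.68 to 7.45), LY96 is higher on all siCCAR2 arrays, HAVCR2 overlaps, and the PYCARD and TLR3 probes lie below the limit on every array.

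The labels do not pair the arrays, but taken in the order of their sections the differences of D from A, E from B and F from C were 0.75, 0.96 and 0.60 for CASP1. They were 0.51, 1.35 and 0.48 for LY96 and 0.66, 1.04 and 0.41 for HAVCR2. For LY96 and HAVCR2 the couple of B and E showed the widest difference, and for CASP1 the couples have no order, since its siLUC signals were not detected. The deviations of these couples from their group means, taken across all genes, correlated at 0.615, 0.665 and 0.44, which describes these arrays and does not come from the labels.

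**Figure D2:**
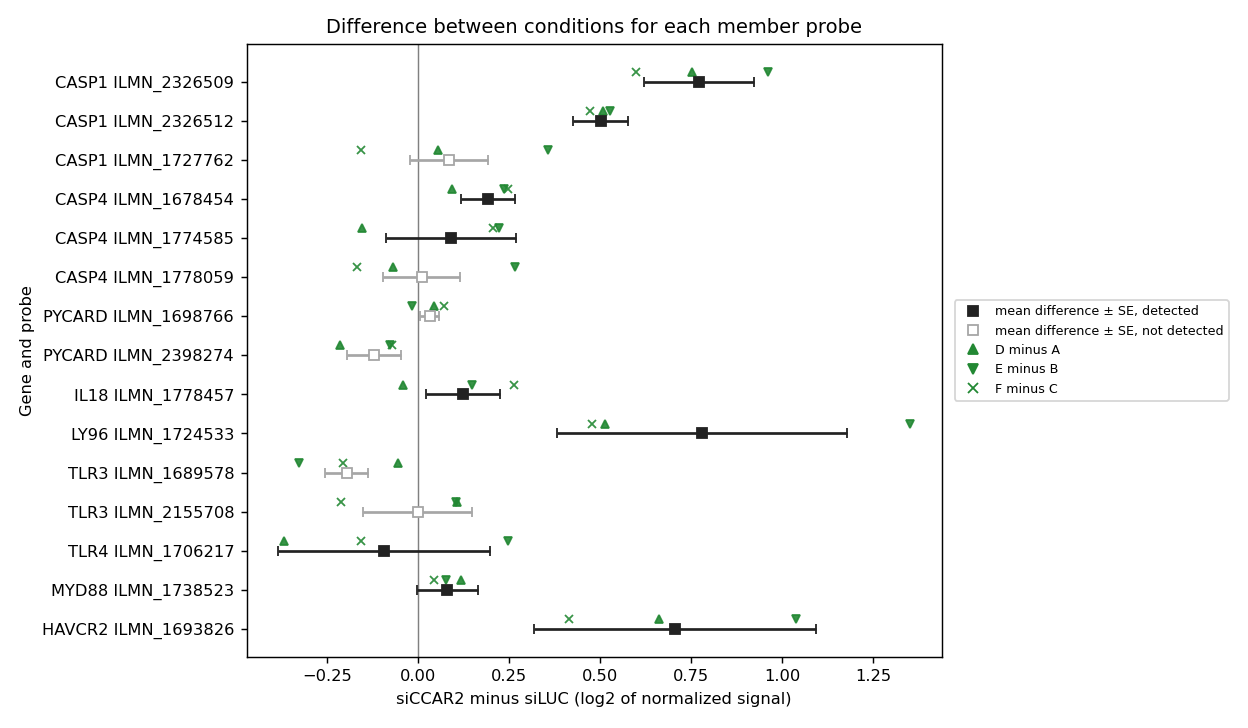
Difference between siCCAR2 and siLUC in log2 of normalized signal (x axis) for each member probe (y axis). Squares are mean differences with standard errors computed from the 3 and 3 arrays of that probe alone, filled where the probe was detected on at least 1 array, and green marks are the differences of arrays taken in section order. LY96 and HAVCR2 lie at 0.78 and 0.70, the CASP1 probes ILMN_2326509 and ILMN_2326512 at 0.77 and 0.50 by signals that were not detected in siLUC, and the remaining probes between -0.20 and 0.19.

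For TLR4, the receptor chain that LY96 joins, the conditions overlapped. It had 9.26, 8.54 and 9.37 in siLUC and 8.89, 8.79 and 9.21 in siCCAR2 cells. The siCCAR2 values all lay inside the siLUC range, and array B was again the lowest. The log2 difference was -0.09 (standard error 0.23), with a 95% interval from -0.61 to 0.43 (adjusted p = 0.955 in limma over all genes, two-sided exact permutation test p = 0.8). Its sign turned when array A or C was left out. Whether LY96 and TLR4 differ in their response was not tested, since LY96 was picked for its rise.

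MYD88 encodes the adaptor that most toll-like receptors and the interleukin-1 receptors share. It had 8.31, 8.18 and 8.15 in siLUC and 8.43, 8.26 and 8.20 in siCCAR2 cells, and the groups overlap. The log2 difference was 0.08 (standard error 0.13, 95% interval from -0.22 to 0.38, adjusted p = 0.925 in limma, two-sided exact permutation test p = 0.5). The interval excludes a rise of more than 1.30-fold in the measured signal, from which no background was subtracted. Under median scaling alone the value was -0.03, where the median of all genes had moved to -0.11, so that relative to all genes it stayed at 0.08.

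TLR3 was not detected on any array. Its probe ILMN_1689578 had 6.69, 6.79 and 6.72 in siLUC and 6.64, 6.46 and 6.52 in siCCAR2 cells, and its probe ILMN_2155708 had 6.63, 6.38, 6.83, 6.73, 6.48 and 6.62 in arrays A to F. All 12 values lie under the lowest detected signal of their arrays, with detection p-values between 0.0558 and 0.482, so no fold change is given. For the receptor of double-stranded RNA the arrays therefore give only an upper limit in either condition.

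PYCARD, the adaptor that links sensors to caspase-1, was likewise not detected on any array. Its probes had bead signals between 77.4 and 103, and detection p-values between 0.166 and 0.675. Probe ILMN_1698766 had 6.59, 6.59, 6.59, 6.63, 6.57 and 6.66 in arrays A to F, and probe ILMN_2398274 had 6.53, 6.31, 6.43, 6.31, 6.23 and 6.36 in arrays A to F. Neither probe rose above the negative control beads, so the level of PYCARD in U2OS cells was not detectable with these arrays.

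The promoter table from RefSeq (GRCh38.p14) was matched for CASP4, PYCARD, TLR3, TLR4 and MYD88. The 250 bases before the annotated start are shown for MYD88, the only one of the 5 with a match to a searched motif, and for PYCARD and TLR3, the members that were not detected. Capitals mark the match. The motifs searched on both strands were the interferon regulatory factor element (GAAA, any 2 bases, GAAA, found in 3.02% of 35116 promoters), the AP-1 site TGANTCA (6.57%), the TATA box TATAAA (10.7%), the ETS core ACCGGAAGT (0.814%) and the NF-kB site (5.21%).
MYD88 (chr3:38138411-38138660, plus strand), whose match begins 61 bases before the start.
MYD88: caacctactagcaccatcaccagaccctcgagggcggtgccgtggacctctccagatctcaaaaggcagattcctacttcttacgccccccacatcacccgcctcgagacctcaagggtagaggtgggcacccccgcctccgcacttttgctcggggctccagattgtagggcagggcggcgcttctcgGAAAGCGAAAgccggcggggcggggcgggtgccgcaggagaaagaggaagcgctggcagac
PYCARD (chr16:31202761-31203010, minus strand).
PYCARD: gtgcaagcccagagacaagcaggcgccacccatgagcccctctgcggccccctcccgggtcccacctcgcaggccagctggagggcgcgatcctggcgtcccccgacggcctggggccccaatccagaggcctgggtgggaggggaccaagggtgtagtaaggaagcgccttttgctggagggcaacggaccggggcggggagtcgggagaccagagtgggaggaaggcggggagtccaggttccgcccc
TLR3 (chr4:186068906-186069155, plus strand).
TLR3: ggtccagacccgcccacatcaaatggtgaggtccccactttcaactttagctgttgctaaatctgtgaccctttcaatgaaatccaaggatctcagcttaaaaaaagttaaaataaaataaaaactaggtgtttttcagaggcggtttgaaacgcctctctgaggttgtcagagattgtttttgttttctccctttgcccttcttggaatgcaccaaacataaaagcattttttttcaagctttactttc
The window of PYCARD holds 16 CG pairs and that of MYD88 holds 19, against a median of 11 over all promoters, while those of TLR3, CASP4 and TLR4 hold 3, 2 and 5. A match is a description of the letters and not a site of binding.

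Caspase-4 and interleukin-18 were present in both conditions. CASP4, a neighbour of CASP1 on chromosome 11, has 3 probes. The probe used for the gene, ILMN_1774585, was detected on all 6 arrays close to the limit. It had 7.47, 7.62 and 7.29 in siLUC and 7.32, 7.84 and 7.50 in siCCAR2 cells, and the groups overlap (log2 difference 0.09, standard error 0.17, 95% interval from -0.30 to 0.48, adjusted p = 0.937 in limma, two-sided exact permutation test p = 0.6). Its sign turned without array E.

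A second CASP4 probe, ILMN_1678454, was also detected on all 6 arrays. It had 10.66, 10.44 and 10.47 in siLUC and 10.75, 10.68 and 10.72 in siCCAR2 cells. The groups do not overlap, with 0.01 between their nearest arrays, and 6.35% of all genes tested were likewise higher in siCCAR2 without overlap. In the fit over 16021 detected probes the log2 difference was 0.19 (standard error 0.13, 95% interval from -0.10 to 0.48, adjusted p = 0.833 in limma), so it did not pass. The third probe, ILMN_1778059, was not detected on any array.

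IL18 encodes the cytokine precursor that caspase-1 cuts. It gave bead signals between 21316 and 28065 on the 6 arrays, with normalized log2 signals of 14.72, 14.45 and 14.41 in siLUC and 14.68, 14.59 and 14.67 in siCCAR2 cells. The siCCAR2 arrays lie inside the siLUC range, whose highest value is array A. The log2 difference was 0.12 (standard error 0.14, 95% interval from -0.19 to 0.44, adjusted p = 0.887 in limma, two-sided exact permutation test p = 0.4). This interval excludes a rise of more than 1.35-fold in the measured signal. These arrays measure the transcript, not the cut cytokine. With 3 arrays against 3 the exact test cannot go below p = 0.1, and none of CASP4, IL18, TLR4 and MYD88 was called under any of the 6 possible pairings of the arrays (adjusted p of at least 0.655 in limma).

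The genes around the inflammasome were mostly not detected in U2OS cells, and none of those tested passed. Of 15 sensors and their regulators, 6 were detected, with 3 above 0 and 3 below (median log2 difference -0.02). NLRP1, NLRC4, NAIP and MEFV, sensors of pathogen activity, were not detected on any array. NLRP3, the sensor of cell damage, was detected on all 6 arrays with a difference of 0.11 (standard error 0.25), and AIM2, a DNA sensor, on 2 siLUC arrays and 1 siCCAR2 array. The members with the smallest p were DPP9, a protease that restrains NLRP1 (0.28, adjusted p = 0.824 in limma), and CARD8 (-0.12, adjusted p = 0.901). None passed limma and 0 had an unadjusted p under 0.05, against 6.49% of all genes tested.

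Downstream, the genes of some pore proteins were detected in both conditions, whereas the gasdermin genes GSDMA and GSDMC were not detected on any array. GSDMD, the gasdermin that caspase-1 and caspase-4 cut, had 11.17 ± 0.15 in siLUC and 11.19 ± 0.22 in siCCAR2 cells (SD, n = 3 each). GSDME had 12.07 ± 0.39 and 11.98 ± 0.42, and NINJ1, which breaks the membrane at the end of lytic death, 12.11 ± 0.84 and 11.99 ± 0.61. Of 13 gasdermins, CARD proteins and regulators, 6 were tested and 0 passed limma or had an unadjusted p under 0.05. The smallest p belonged to GSDMB (0.26, adjusted p = 0.793) and CARD18 (-0.12, adjusted p = 0.903). Of 4 apoptotic caspases tested, 2 lay above 0 and 2 below and none passed, and those of smallest p were CASP8 at 0.25 (adjusted p = 0.805) and CASP9 at -0.11 (adjusted p = 0.924).

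The interleukin-1 family to which IL18 belongs was largely undetected. IL1A, IL1B, IL33 and the interleukin-36 ligands were not detected on any array, and 6 of 19 genes were tested, with 2 above 0, 4 below and a median of -0.03. IL18R1, a chain of the receptor for IL18, was detected on 1 siLUC array and 2 siCCAR2 arrays, whereas IL18RAP, the other chain, was not detected. IL18BP, the secreted inhibitor of IL18, had a log2 difference of -0.26 (adjusted p = 0.824 in limma). SIGIRR, an inhibitory receptor and the other gene of smallest p, was detected on 1 siCCAR2 array only, so no difference is given for it (adjusted p = 0.846). None of the 6 had an unadjusted p under 0.05. The 2 above 0, SIGIRR and IL1RL1, were detected on no siLUC array, so nothing is read from their signs.

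Among other toll-like receptors, TLR6 was detected on all 6 arrays (log2 difference 0.05), while TLR1, TLR2, TLR5, TLR7, TLR8, TLR9 and TLR10 were not detected on any. CD14, which hands lipopolysaccharide to TLR4 and LY96, was detected on 1 siCCAR2 array and no siLUC array, at 6.92 ± 0.09 and 7.16 ± 0.10 (SD, n = 3 each). The chaperone genes CNPY3 and HSP90B1, whose products fold toll-like receptors, had log2 differences of 0.30 (adjusted p = 0.821 in limma) and -0.03. Of 16 genes in this list 5 were tested, 4 above 0 and 1 below, with 0 past the threshold and 0 at an unadjusted p under 0.05. CD14 is among the 4 by signals that were not detected in siLUC, so nothing is read from its sign.

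The signalling chain behind the receptors was well represented, with 22 of 27 adaptors, kinases, ubiquitin ligases and inhibitors tested. Of these, 16 lay above 0 and 6 below (50.9% of all genes lay above 0), with a median of 0.10. Under median scaling alone the median of the list was -0.03, where the median of all genes had moved to -0.11. In the main fit 0 passed limma or had an unadjusted p under 0.05. The members of smallest p were the kinase IKBKE (0.27, adjusted p = 0.776) and TAB2, which holds the kinase TAK1 to ubiquitin chains (-0.37, adjusted p = 0.787). TIRAP, the bridge between TLR4 and MYD88, was not detected on any array. TICAM1, the adaptor of TLR3, was detected on all 6 with a log2 difference of 0.20 (adjusted p = 0.844).

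Genes induced through toll-like receptors lay above 0 in 12 of 14 cases tested, with a median of 0.26 against 0.0042 over all genes. Under median scaling alone the median of the list was 0.15, where the median of all genes had moved to -0.11. IL6 had 6.81, 7.18 and 7.03 in siLUC and 7.51, 7.79 and 7.47 in siCCAR2 cells. No siLUC array detected it, which leaves a bound of at least 1.31-fold higher (adjusted p = 0.684 in limma). The superoxide dismutase gene SOD2 had a log2 difference of 0.65 (adjusted p = 0.767). None of the 14 passed limma, and 3 higher and 0 lower had an unadjusted p under 0.05, as did 3.49% and 3.01% of all genes. Those 3 include IL6. IL6 and CXCL3, both among the 12 above 0, were detected on no siLUC array and entered the list only through siCCAR2 arrays. Nothing is therefore read from their signs or p-values. TNF and ICAM1 were not detected on any array.

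Since siRNA is itself double-stranded RNA, the cytosolic sensors of such RNA and the interferon-stimulated genes were counted too. Of 9 sensors and partners tested, 4 lay above 0 and 5 below (median -0.03), and IRF3 and MAVS had the smallest p, with log2 differences of 0.30 (adjusted p = 0.819 in limma) and 0.17 (adjusted p = 0.882). IFNB1 and IFNL1, the interferon genes, were not detected on any array. Of 12 interferon-stimulated genes 6 lay above 0 and 6 below, with a median of 0.0025. ISG15 encodes a ubiquitin-like modifier and had 9.73, 9.57 and 9.78 in siLUC and 10.39, 9.99 and 10.56 in siCCAR2 cells (log2 difference 0.62, adjusted p = 0.701), and GBP2, a guanylate-binding protein, had 0.61 (adjusted p = 0.767), while IFIT1, MX1 and IRF1 had -0.12, -0.07 and -0.05. IFI44L had a log2 difference of 0.55 (adjusted p = 0.768 in limma). None of the 12 passed, and 2 higher and 0 lower had an unadjusted p under 0.05, as did 3.49% and 3.01% of all genes. Both conditions received siRNA, and the part of the siRNA in any of these values was not tested.

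Most known partners of HAVCR2 were not seen. LGALS9 and CEACAM1, which encode ligands of TIM-3, were not detected on any array, nor was the kinase gene LCK. HMGB1, a nuclear protein that TIM-3 binds outside cells, had 8.93, 8.98 and 9.27 in siLUC and 8.31, 8.32 and 8.67 in siCCAR2 cells, and its groups do not overlap (siCCAR2 was lower in this way for 5.68% of all genes). Its log2 difference was -0.62 (standard error 0.16, adjusted p = 0.677 in limma), and HMGB1 has many near-identical processed copies in the genome that a probe may not tell apart. FYN had 0.17 (adjusted p = 0.857). Of 7 genes with a probe used here 3 were tested, and 1 was lower at an unadjusted p under 0.05, as were 3.01% of all genes.

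**Figure D3:**
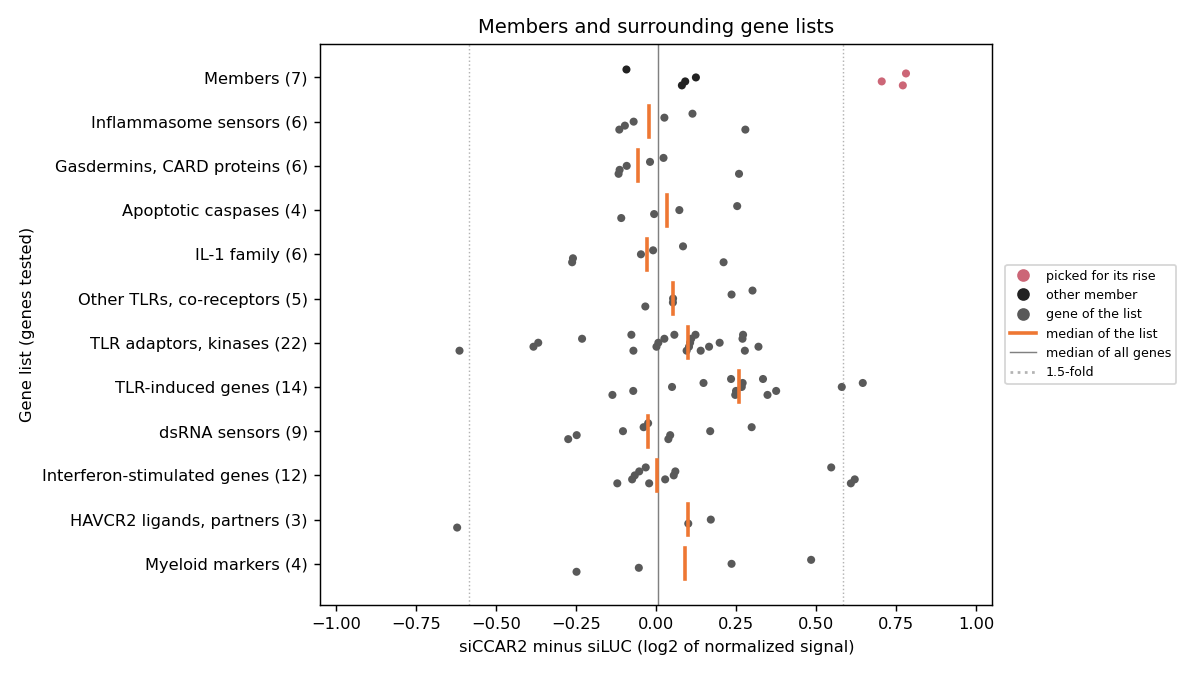
Difference between siCCAR2 and siLUC in log2 of normalized signal (x axis) for each gene tested in the members and in 11 surrounding lists (y axis, with the number of genes tested). Points are genes, orange bars are medians of the lists, the grey line is the median of all genes and the dotted lines mark 1.5-fold. LY96 and HAVCR2 lie beyond 1.5-fold, and the other 4 members lie between -0.09 and 0.12. The point of CASP1 is a measured difference whose siLUC signals were not detected and is no fold change. The medians of the 11 lists drawn lie between -0.06 and 0.26. The lymphoid, mesenchymal and epithelial markers are not drawn, and their medians were 0.09, -0.14 and 0.32.

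With the replicate as a block and the arrays paired in section order, 200 of 12013 genes passed in limma (1.66%), of which 120 were higher (0.999%) and 80 lower (0.666%). After neqc the block called 45 higher and 23 lower, and under median scaling alone 22 higher and 41 lower. PELI1, a ubiquitin ligase of toll-like receptor signalling named here after its value was seen, fell under this block (log2 difference -0.62, adjusted p = 0.032), as did HMGB1 (adjusted p = 0.0138). SOD2 (adjusted p = 0.0427), ISG15 (adjusted p = 0.0173) and GBP2 (adjusted p = 0.0152) rose under it. Each of these 5 passed under only this 1 of the 6 possible pairings, and none of them passed when the block was combined with neqc background correction (adjusted p from 0.0512 for GBP2 to 0.154 for SOD2) or with median scaling alone (adjusted p from 0.0982 for HMGB1 to 0.479 for GBP2).

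CASP1, HAVCR2 and LY96 have been studied in myeloid cells, so markers of blood cells were examined beside them. LY96 and HAVCR2 were themselves detected on all 6 arrays of these U2OS cells. Of 15 myeloid markers with a probe used here, 4 were detected on any array, and PTPRC, SPI1, TYROBP, CD163, LYZ and CYBB, which define these cells, were not detected on any. The summed signal of the 15 was between 1556 and 1638 in siLUC and between 1600 and 1711 in siCCAR2 arrays, with 1 to 2 and 2 to 3 markers detected. The median log2 difference of the 4 was 0.09. It was -0.03 with the genes that 1 condition did not detect at their bound, and CD14, for which no bound can be given, at 0. ITGAX, an integrin chain, was detected on all siCCAR2 and no siLUC arrays. Its measured log2 difference of 0.48 is no fold change, and only a bound of at least 1.08-fold higher is given. Nothing is read from its adjusted p of 0.747 in limma, since it entered only through siCCAR2 arrays. CSF1R, a receptor of macrophages, was detected on 2 siLUC and no siCCAR2 arrays, with a measured log2 difference of -0.25, at least 1.04-fold lower. AIF1 was detected on all 6 (log2 difference -0.05). Of 7 lymphoid markers only CD79A was detected (log2 difference 0.09, adjusted p = 0.917), and the T cell genes CD3D, CD3E and CD2 were not detected on any array. Of 6 epithelial markers 3 were detected, of which KRT8, KRT18 and EPCAM had 0.52 (adjusted p = 0.767), 0.32 (adjusted p = 0.772) and -0.03, and CDH1, CLDN4 and KRT19 were not detected on any array. Of 8 mesenchymal markers tested, 1 lay above 0 (THY1, 0.42) and 7 below, with a median of -0.14, where 50.9% of all genes lay above 0. Of these, SPARC, a matrix glycoprotein, fell (log2 difference -1.71, adjusted p = 0.0394 in limma), and no other was called. The summed signal of the 10 mesenchymal markers was between 49600 and 50580 in siLUC and between 42650 and 45030 in siCCAR2 arrays. The cause of this difference was not tested.

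The genes whose pattern over the 6 arrays was most like that of each picked gene were found by the root mean square difference of their centred log2 signals. For CASP1, whose own SD over the arrays was 0.453, they were ICAM2 (0.0697), VAMP5 (0.101) and DGKA (0.111). ICAM2 encodes an adhesion molecule and VAMP5 a vesicle protein, and both were lowest in array B, as was the measured signal of CASP1. CASP1 was not detected on arrays A to C, so its SD and its likeness rest partly on signals not above the negative control beads. For LY96 (SD 0.611) they were NAT16 (0.170), the ribosomal protein gene RPS29 (0.209) and LUM, which encodes the matrix proteoglycan lumican (0.218). Array B was the lowest in all of these. For HAVCR2 (SD 0.574) they were RNU1-1 (0.0941), RNVU1-18 (0.103) and RNU1-3 (0.116), 3 genes of the U1 small nuclear RNA, which are near-identical copies and cannot be counted as separate. RNU1-1 had 10.60, 10.20 and 10.00 in siLUC and 11.29, 10.99 and 10.32 in siCCAR2 arrays. Like HAVCR2, it was highest in arrays D and E, and array A of siLUC exceeded array F of siCCAR2. These genes were chosen for their likeness among 12013, and 6 arrays hold few distinct patterns.

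**Figure D4:**
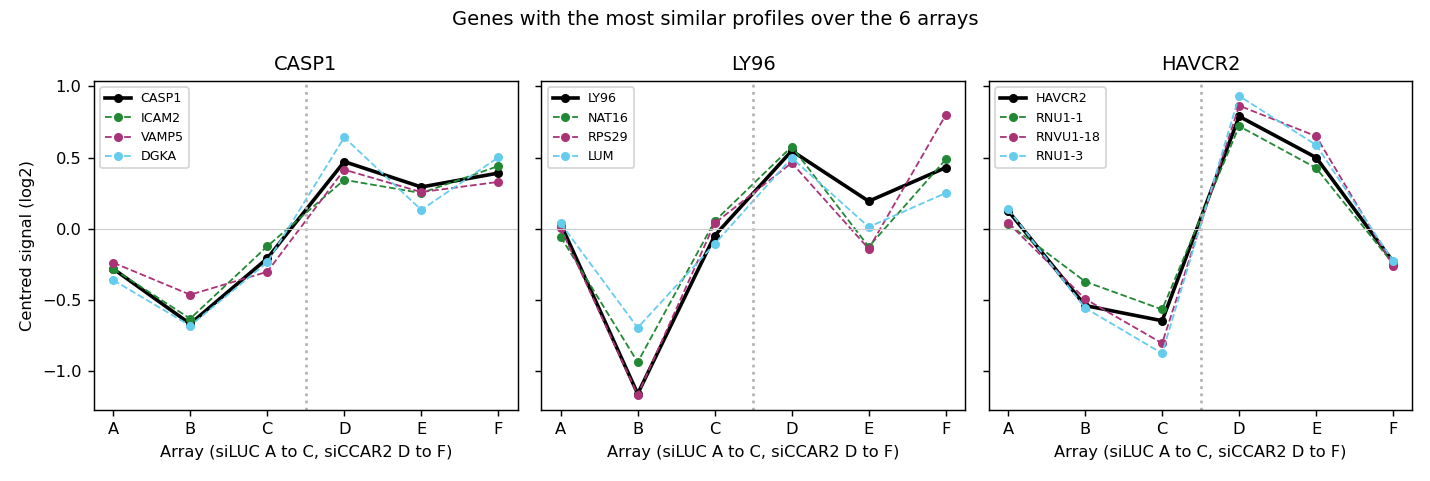
Centred log2 signal (y axis) on arrays A to F (x axis) of CASP1, LY96 and HAVCR2 (black) and of the 3 genes whose profile differs least from each (dashed colours), where lines join the values of a gene without any order among arrays and the dotted line divides siLUC from siCCAR2. Array B is the lowest for CASP1 and LY96 and their companions, although CASP1 was not detected on arrays A to C. HAVCR2 and the U1 genes share a profile in which arrays D and E are highest and array C lowest.

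**Figure D5:**
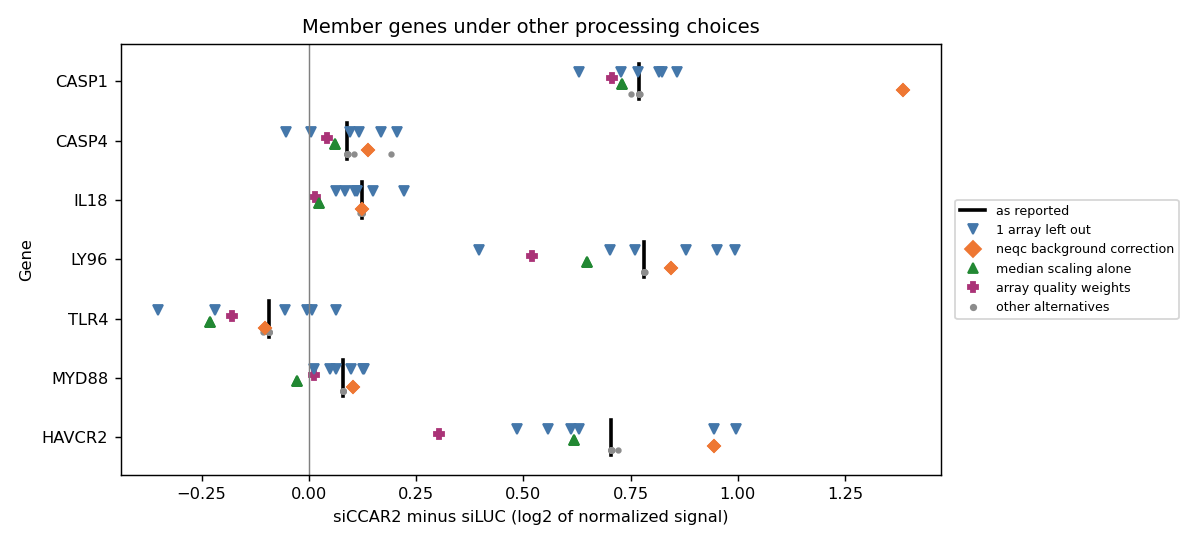
Log2 difference between siCCAR2 and siLUC (x axis) of the 7 member genes tested (y axis) as reported (black bars) and under 24 other processing choices (symbols). The picked genes lie between 0.30 for HAVCR2 with array quality weights and 1.39 for CASP1 after neqc background correction, and TLR4 lies between -0.35 and 0.06.

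Over the 24 other processing choices the difference ranged from 0.63 to 1.39 for CASP1, from 0.40 to 0.99 for LY96 and from 0.30 to 0.997 for HAVCR2. The pairings and the variance settings leave a difference as it is, and these genes were picked for their rise, so the ranges describe its size and do not support its direction. The value of 1.39 for CASP1 came from neqc background correction and rests on siLUC signals that were not detected. IL18 ranged from 0.01 to 0.22 without a change of sign. CASP4, MYD88 and TLR4 ranged from -0.05 to 0.21, -0.03 to 0.13 and -0.35 to 0.06, so that no direction is given for them. MYD88 lay below 0 only under median scaling alone, without and with the block, where the median of all genes had moved to -0.11.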

How the data were processed

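Total RNA of U2OS cells was hybridized to Human HT12_v4 bead arrays, 3 siLUC and 3 siCCAR2. The authors deposited non-normalized bead signals a linear intensity per probe, together with a detection p-value. BeadStudio 3.8 is named in the submitters' processing notes and GenomeStudio in the methods. The labels name an FFPE kit for the RNA and a microRNA guide for labelling, whereas the methods name Qiazol and a TotalPrep kit. The deposited table of normalized values holds intensities that were quantile normalized on a linear scale, as their medians (112.839 to 112.919) and ranks show. It was used as an alternative. Robust spline normalization after a log2 transformation, which the authors' methods give, was not run here.

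No background was corrected. Signals were taken to log2 and quantile normalized. Of 47321 probes, 30112 carry 1 gene symbol, 8 several and 17201 none, from GEO's platform annotation. Probes with 1 symbol and a detection p under 0.01 on at least 1 array were kept (16021), and for each symbol the probe detected on most arrays, then that of highest interquartile range, left 12013 genes. siCCAR2 was compared with siLUC by lmFit and eBayes of limma 3.58.1 (R 4.3.3) with Benjamini-Hochberg adjustment, and genes at 1.5-fold or more with an adjusted p no higher than 0.05 were called. Fits were tested on simulated data. Where a probe was not detected on any array of a condition, a bound was taken against the lowest detected signal of each array. Gene lists were described by counts and medians, with no set test.

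The members and lists were chosen with earlier results of these data known. Genes named are the members and CCAR2, for each list its called genes or else the 2 of smallest p and undetected defining genes, and the 3 genes most like each picked member. PELI1 and other listed genes given with a function or a value were named after their values were seen. A sheet name of the paper's supplement calls the comparison paired, but no label gives pairs, so the main fit has none. The replicate block was run under all 6 pairings. Pairing A with D, B with E and C with F was adopted with earlier results known. Alternatives were neqc (offset 16), median scaling alone, cyclic loess, the deposited table, other detection filters and probe choices, every probe on its own, variance trend with robust estimation, array weights, no fold threshold and leaving out each array. Promoter sequences came from RefSeq (GRCh38.p14). Probe sequences were not used here. Figures were drawn with matplotlib 3.10.9.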

Additional observations from a re-analysis of the deposited data

How the results depend on the processing

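The count of called genes was 3 and depended on most choices. It was 0 when the probe of highest mean represented a gene, after neqc and under median scaling alone (709, 755 and 522 genes at an unadjusted p under 0.05), 18 with array quality weights (12 higher, 6 lower), and between 0 and 8 when 1 array was left out, with 8 only without array B (2 higher, 6 lower) and 0 without any of the other 5 (375 to 653 at an unadjusted p under 0.05), so that CCAR2 and SPARC were not called there. The replicate block called 200 with the arrays paired in section order, 15 with the pairs A-F, B-E and C-D (7 higher, 8 lower) and 0 under the other 4 pairings (380 to 647 at an unadjusted p under 0.05). Combined with the block in section order, neqc gave 68 (45 higher, 23 lower) and median scaling alone 63 (22 higher, 41 lower). It stayed at 3 or within 1.5 times of it under the other 7 choices. Of the members without a picked rise, CASP4 had a log2 difference between -0.053 and 0.21 when 1 array was left out and TLR4 between -0.35 and 0.064, and MYD88 had -0.027 with median scaling alone, without and with the block. Median scaling alone moved the median of all genes to -0.11. None of CASP4, TLR4, MYD88 and IL18 was called under any choice. The cause of these changes was not tested. Only 3 arrays per condition and the nearness of CASP1 and of one CASP4 probe to the detection limit bound what these values can show.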
